A study of Homo sapiens with 3 samples.

Results

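The S100 calcium-binding proteins were followed in HT29 cells, an established human colorectal adenocarcinoma line, that had been transduced by lentivirus with a miR-146a expression construct or with an empty vector. The family is represented here by 10 genes of the 19775 with a probe set of their own, namely S100A2, S100A3, S100A4, S100A6, S100A10, S100A11, S100A13, S100A14, S100A16 and S100P. They were read by all 13 probe sets that the platform annotation assigns to exactly 1 of these genes, out of 54613 probe sets besides controls. The series holds 3 arrays, 2 of them from miR-146a cells and 1 from vector cells, so the vector cells were measured once. All 3 arrays share the parental line, the growth medium and the lentiviral delivery. Whether separate cultures lie behind the 2 miR-146a replicates, and how transduced cells were selected, is not stated in the labels. Every p-value therefore rests on a spread between arrays that may be technical only.

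S100 proteins are small proteins with paired EF-hand motifs that mostly form dimers, change shape on binding calcium and then dock onto partner proteins, with no enzyme activity of their own. Many act inside the cell on annexins, the cytoskeleton and transcription regulators, and some are released and bind the receptor AGER (RAGE). Most of the genes lie in a cluster on chromosome 1, where 9 of the 10 members are found, while S100P lies on chromosome 4. S100A4, S100A6, S100A11 and S100P are known for being raised in colorectal tumours.

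The agent that separates the groups is the microRNA itself, and its mature strand is shown because its seed defines which transcripts it can pair with. The seed, bases 2 to 8, is in capitals, and 3 mature human microRNAs in the RefSeq table (GRCh38.p14) carry it, of which the miR-146 pair is printed. The first lies at chr5:160485372-160485393 and the second at chr10:102436520-102436542, both on the plus strand.
hsa-miR-146a-5p: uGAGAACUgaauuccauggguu
hsa-miR-146b-5p: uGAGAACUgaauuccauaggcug
Whether the S100 transcripts hold matches to this seed was not analysed here.

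The S100 family as a whole was nearly level between the miR-146a and vector cells, and 1 probe set stood out from it. That probe set, 238909_at of S100A10, read 1.56-fold higher in the miR-146a arrays, while the other S100A10 probe set read slightly lower. S100A2 read 1.20-fold higher, and S100A14, S100P and S100A16 read 1.17-fold, 1.09-fold and 1.07-fold lower, and none of these 4 differences passed the test. Of the 13 probe sets, 12 lay above the filter on low signal (a mean of both group means above 5.13 on the log2 scale, the median of all probe sets), and every gene had at least 1 of them. Among these 12, 6 read above the vector in both arrays of miR-146a cells, against 36% of the 27306 probe sets above the filter, and 5 read below it in both, against 33.1%. At a size of at least 1.5-fold in both arrays, 1 was higher, against 0.447% of all, and 0 were lower, against 0.688%. The median difference (miR-146a mean minus vector, log2) was 0.01 over the 12 and 0.00 over all probe sets above the filter, and the median size of the differences was 0.10 in each case. Both differences of a probe set are taken from the same vector array, so the same sign in both arrays does not stand for separate observations.

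**Figure D1:**
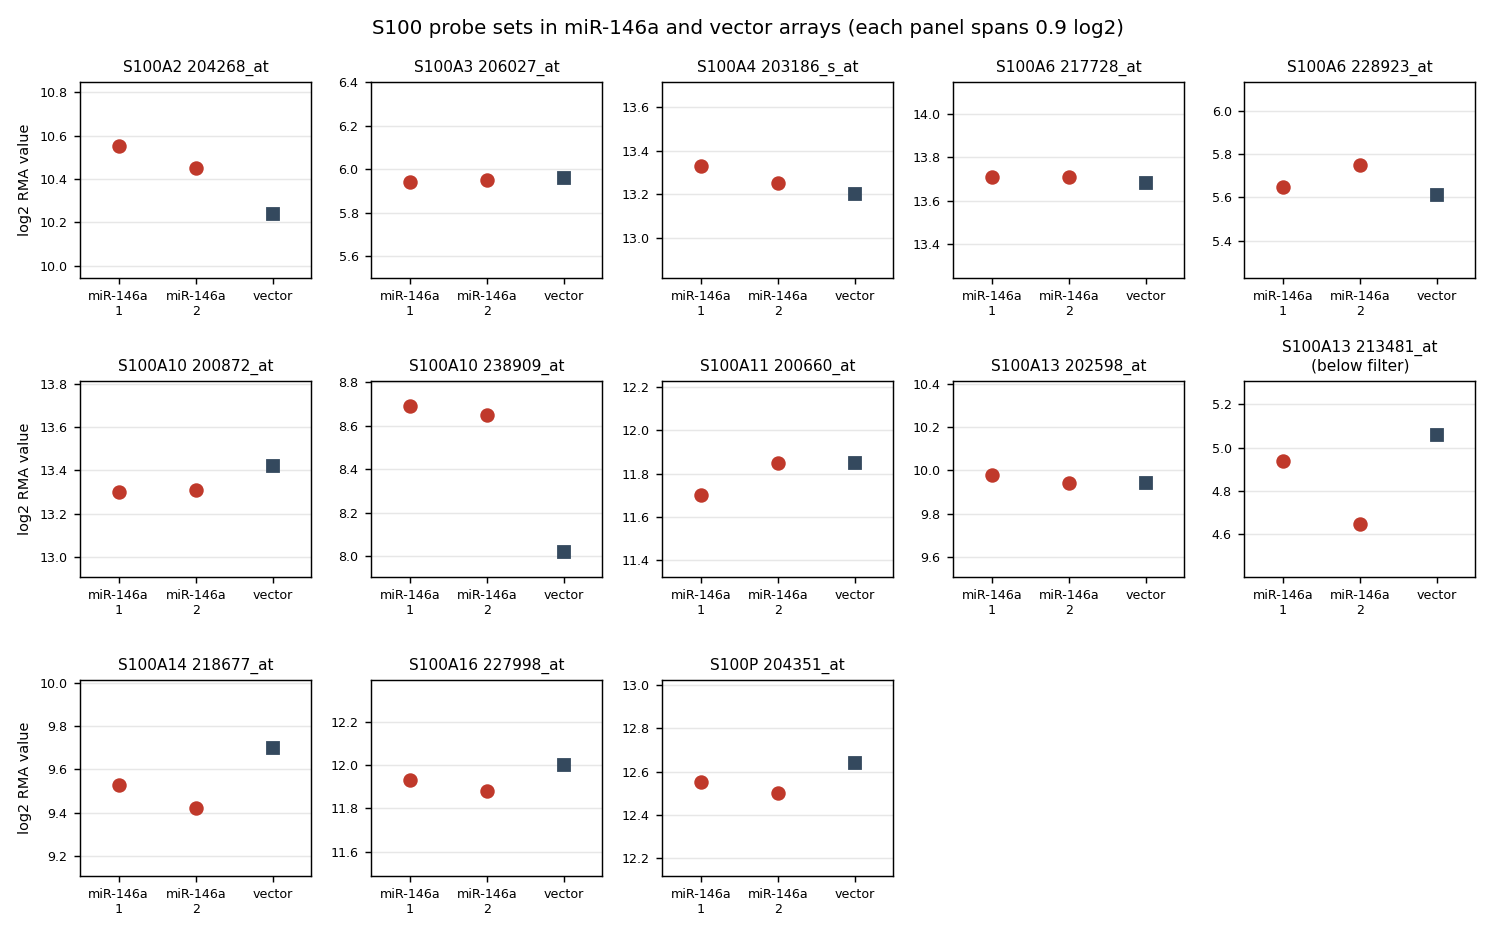
Log2 RMA value (y axis, each panel spanning 0.9 log2) of the 13 S100 probe sets in the 2 miR-146a arrays (red circles) and the vector array (dark square). The 2 S100A10 probe sets lie on opposite sides of the vector, S100A2 reads above it, and S100A14, S100A16 and S100P read below it.

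No S100 probe set passed the main test. Limma (two-sided, Benjamini-Hochberg over 27306 probe sets, adjusted p of 0.05) called 0% of all probe sets as higher and 0% as lower, with a smallest adjusted p of 0.131, while 3393 had an unadjusted p under 0.05 as higher and 2986 as lower, 2 of them from the S100 family (both S100A10). With the variance prior taken only from probe sets whose miR-146a replicates differ, 1130 were called higher (4.14%) and 1306 lower (4.78%), and of the S100 probe sets 1 was called, S100A10 238909_at, as higher. For a single probe set, an exact permutation of the 3 arrays cannot go below p = 0.333 (one-sided), so no such test was used.

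S100A10, also called p11, is unusual in the family in that its EF-hands have lost calcium binding, and it forms a complex with annexin A2 at the plasma membrane. Its probe set 238909_at, annotated through the expressed sequence BF126155, read 8.69 and 8.65 in the miR-146a arrays, against 8.02 in the vector array. Its probe set 200872_at, annotated through the RefSeq transcript NM_002966, read 13.30 and 13.31 in the miR-146a arrays, against 13.42 in the vector array. The 2 probe sets lay on opposite sides of the vector in both arrays. In both arrays alike, 36% of single probe sets above the filter lay on the higher side, and 33.1% on the lower. These shares do not measure how often probe sets of the same gene disagree.

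On the log2 scale the difference of S100A10 238909_at was 0.65 with a limma standard error of 0.023 and an adjusted p of 0.131. With the prior from unequal replicates its standard error was 0.0997 and its limma adjusted p 0.000829, but over 6 other alternatives the adjusted p lay between 0.0894 and 0.155. Only 91 of the 27306 probe sets (0.333%) were at least as high in both arrays by the smaller of the 2 differences, this one included. It was ranked because that value was the largest in size among the 12 S100 probe sets above the filter. Its rank is therefore no separate evidence. For S100A10 200872_at the difference was -0.12, with a limma standard error of 0.00908 (adjusted p = 0.14) and an adjusted p of 0.594 with the prior from unequal replicates. Averaging both probe sets gave 0.26 for the gene, so its direction depended on which probe set stood for it.

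Disagreement between probe sets of a gene was common on these arrays, but rarely of this size. Of 5922 genes with more than 1 probe set above the filter, 1377 (23.3%) had 1 probe set higher in both miR-146a arrays and another lower in both. The gap between the highest and the lowest difference was 0.76 on the log2 scale for S100A10, against a median of 0.18 over these genes, and 73 genes (1.23%) had a gap at least as large. For S100A6 it was 0.07. The share for S100A10 is a description only, since 238909_at was already the S100 probe set that stood out. Which part of a transcript each probe set reads was not analysed here.

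**Figure D2:**
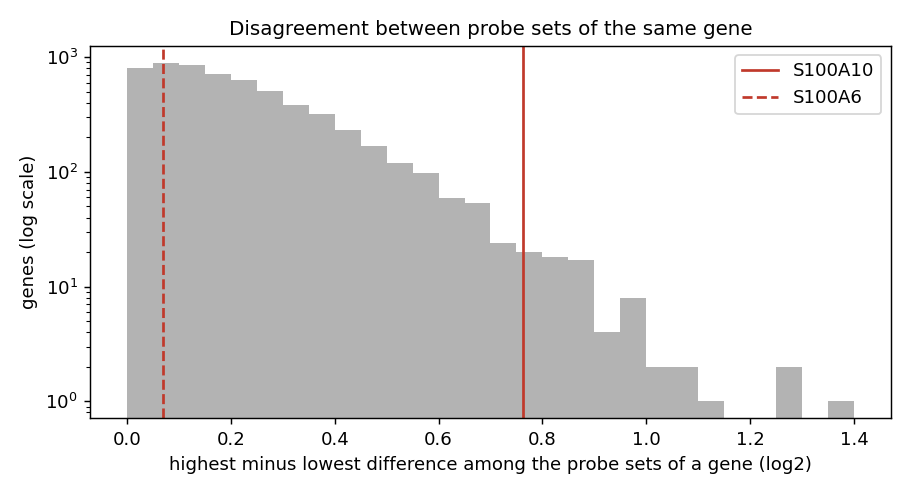
Histogram of the gap between the highest and lowest difference (miR-146a mean minus vector, log2, x axis) among the probe sets of each of 5922 genes, with the number of genes on a log y axis. S100A10 (solid line, 0.76) lies far to the right of the median of 0.18, and S100A6 (dashed line, 0.07) lies to its left.

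S100A2, a nuclear S100 protein known as a p53 target and p53 partner, read 10.55 and 10.45 in the miR-146a arrays, against 10.24 in the vector array. Both miR-146a values lay above the vector by more than the gap of 0.10 between them. The difference was 0.26 on the log2 scale with a limma standard error of 0.0693 and did not pass (adjusted p = 0.29, and 0.135 with the prior from unequal replicates). S100A4, also called metastasin, binds non-muscle myosin MYH9 and is known for promoting cell motility. It read 13.33 and 13.25 in the miR-146a arrays, against 13.20 in the vector array, and its difference of 0.10 was about as large as the gap of 0.09 between the replicates.

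S100A6, calcyclin, binds CACYBP, an adaptor of a ubiquitin ligase complex. Its probe set 217728_at read 13.71 in both miR-146a arrays, against 13.68 in the vector array, and 228923_at read 5.65 and 5.75 in the miR-146a arrays, against 5.61. Both probe sets were thus higher than the vector by no more than 0.14 in either array. S100A13, which assists the release of FGF1 and interleukin 1 alpha without a signal peptide, read 9.98 and 9.94 in the miR-146a arrays, against 9.94 in the vector array, by 202598_at. Its other probe set, 213481_at, is the 1 S100 probe set below the filter, and it read 4.94 and 4.65 in the miR-146a arrays, against 5.06 in the vector array. There the replicates differed by 0.30, more than the mean difference of -0.27.

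S100A14 and S100A16 are epithelial S100 proteins, and S100P is a secreted and cytoplasmic member that binds ezrin (EZR) and is known from gastrointestinal tumours. S100A14 read 9.53 and 9.42 in the miR-146a arrays, against 9.70 in the vector array. Its difference of -0.22 on the log2 scale had a limma standard error of 0.0826 and did not pass (adjusted p = 0.374, and 0.224 with the prior from unequal replicates). S100P read 12.55 and 12.50 in the miR-146a arrays, against 12.64 in the vector array, a difference of -0.12. S100A16 read 11.931 and 11.879 in the miR-146a arrays, against 12.001 in the vector array, a difference of -0.10. In each of the 3 genes the miR-146a arrays did not overlap with the vector array and lay farther from it than from each other. Together with S100A10 200872_at these were the 4 S100 probe sets of 12 that did so on the lower side, against 22.1% of all, and 3 did so on the higher side, S100A2, S100A6 217728_at and S100A10 238909_at, against 24.8%.

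S100A3, a cysteine-rich zinc-binding member best known from the hair cuticle, read 5.94 and 5.95 in the miR-146a arrays, against 5.96 in the vector array. The differences were at most 0.02 in size. S100A11, which binds annexin A1, read 11.70 and 11.85 in the miR-146a arrays, against 11.85 in the vector array. Replicate 2 and the vector held exactly the same S100A11 value, and the replicates differed by 0.15, the largest gap among the 12 S100 probe sets. Exact equality was not particular to S100A11, since 12.5% of the probe sets above the filter were equal in both miR-146a arrays, 10.1% in replicate 1 and the vector and 11% in replicate 2 and the vector (tolerance 0).

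**Figure D3:**
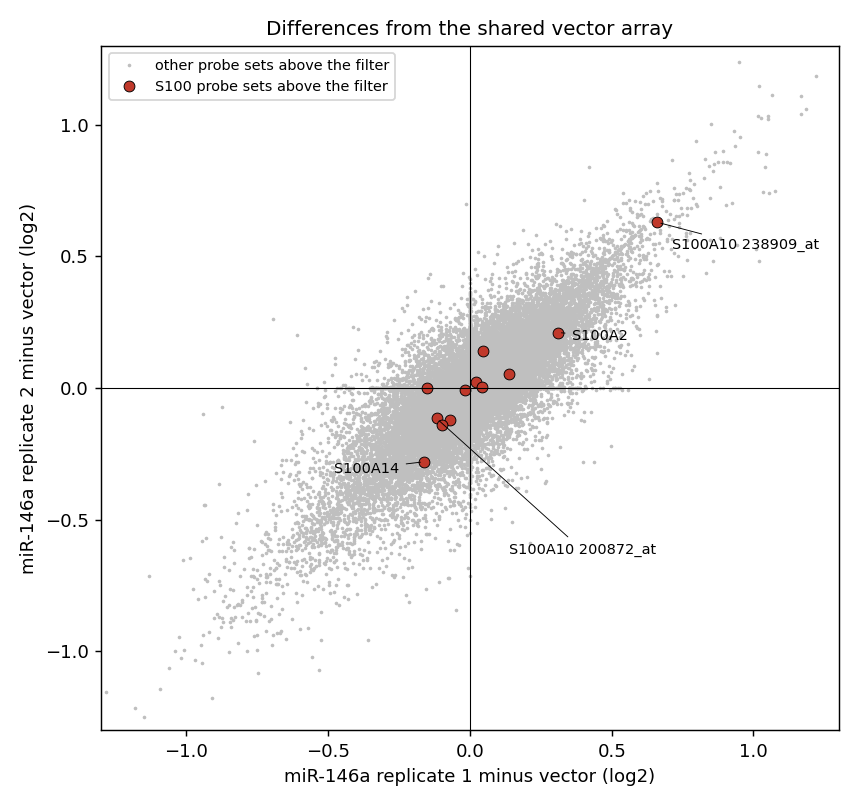
Difference from the shared vector array (log2) in miR-146a replicate 1 (x axis) and replicate 2 (y axis) for probe sets above the filter (grey) and the 12 S100 probe sets among them (red), with 12 other probe sets beyond the plotted range. S100A10 238909_at sits at 0.66 and 0.63, and the other S100 probe sets lie between -0.28 and 0.31.

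The rest of the S100 family gave little signal in either group. Of 11 further genes listed (other S100 genes and the S100P-binding protein S100PBP), 3 had a highest probe set above the filter, and none of these was 1.5-fold apart in both arrays. S100A8 and S100A9, the subunits of calprotectin from myeloid cells, had no probe set above the filter. Their highest values were 4.20 and 3.51 in the miR-146a arrays, against 4.07 and 3.43 in the vector array. S100PBP read 7.55 and 7.43 in the miR-146a arrays, against 7.77 in the vector array, by 222610_s_at, a difference of -0.28. Its other probe set, 218370_s_at, read higher by 0.15, so S100PBP gave no single direction.

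Annexins are calcium-dependent membrane-binding proteins and the best-known docking partners of S100 dimers. Of 11 annexins above the filter, each by its highest probe set, 8 read below the vector in both arrays of miR-146a cells, against 28.8% of 12444 genes, and 1 read above it in both, against 40.2%. At a size of at least 1.5-fold in both arrays, 1 was lower (ANXA13), against 0.297% of genes, and 0 were higher, against 0.546%. Over all 19 annexin probe sets above the filter, 13 were lower in both arrays, against 33.1% of all probe sets. Higher in both were 3, against 36%, and several of the 19 belong to the same gene. The median annexin difference was -0.07 on the log2 scale, against 0.01 over all genes. None passed limma over all probe sets. With the prior from unequal replicates 3 passed as lower (ANXA1, ANXA5 and ANXA13), against 2.29% of genes, and 1 as higher (ANXA6), against 4.4%. Among the other annexin probe sets 233011_at of ANXA1 also passed, as higher (limma adjusted p = 0.00107), against its lower call by 201012_at (adjusted p = 0.0184), so ANXA1 had no single direction. The list was chosen with earlier results of these arrays known, so these counts are a description.

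ANXA13, an annexin of intestinal epithelium, read 6.30 and 6.36 in the miR-146a arrays, against 7.08 in the vector array, 1.67-fold lower (limma adjusted p = 0.131, and 0.000275 with the prior from unequal replicates). ANXA5, which binds phosphatidylserine, read 11.82 and 11.83 in the miR-146a arrays, against 12.25 in the vector array. By the highest probe set of each gene, ANXA6 was the 1 annexin higher in both arrays. It read 7.69 and 7.64 in the miR-146a arrays, against 7.26 in the vector array. For these 3 annexins the replicates differed by at most 0.06. They were named because both of their differences from the vector were large, so their distance from it is no separate evidence.

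The direct partners of the S100 members did not all lie on the same side of the vector, though more read below it than above it. ANXA2, the partner of S100A10, read 13.92 and 13.89 in the miR-146a arrays, against 13.95 in the vector array, and its 3 probe sets above the filter gave log2 differences between -0.07 and -0.03. ANXA2 thus lay near the vector, within the median size of 0.10 over all probe sets above the filter. ANXA1, the partner of S100A11, read 11.40 and 11.37 in the miR-146a arrays, against 11.79 in the vector array by 201012_at. Its second probe set, 233011_at, went the other way, with 5.87 and 5.69 in the miR-146a arrays, against 5.11 in the vector array, so that the probe sets of ANXA1 lay 1.07 apart, even more than those of S100A10.

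AHNAK, a giant scaffold protein that binds the S100A10 and annexin A2 complex, read 10.57 in both miR-146a arrays, against 10.85 in the vector array, a difference of -0.28. Its 2 other probe sets above the filter differed by -0.30 and -0.11. CACYBP, the partner of S100A6, gave differences from -0.10 to 0.08 over its 4 probe sets above the filter, and EZR, the partner of S100P, gave differences from -0.26 to 0.07 over its 4. PPFIBP1 (liprin beta 1), a partner of S100A4, had a difference of -0.32 by its highest probe set, -0.16 and 0.13 by the others above the filter. AGER, the receptor for released S100 proteins, read 5.60 and 5.56 in the miR-146a arrays, against 5.37 in the vector array. The list of partners and receptors shares ANXA1, ANXA2 and ANXA11 with that of the annexins. Of 20 partners and receptors above the filter, 12 were lower in both arrays, against 28.8% of genes, and 4 were higher in both, against 40.2%. By the highest probe set none was 1.5-fold apart in both arrays. With the prior from unequal replicates 1 passed (ANXA1, as lower), against 4.4% of genes as higher and 2.29% as lower. Over all 49 partner probe sets above the filter, 1 passed as higher (ANXA1 233011_at, with its vector value below the filter), against 4.14% of all probe sets. As lower, 3 passed (ANXA1 201012_at, PLAUR 214866_at and TRPV6 1559405_a_at), against 4.78%. The other probe sets above the filter differed by 0.05 and -0.05 for PLAUR and by -0.03 for TRPV6.

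**Figure D4:**
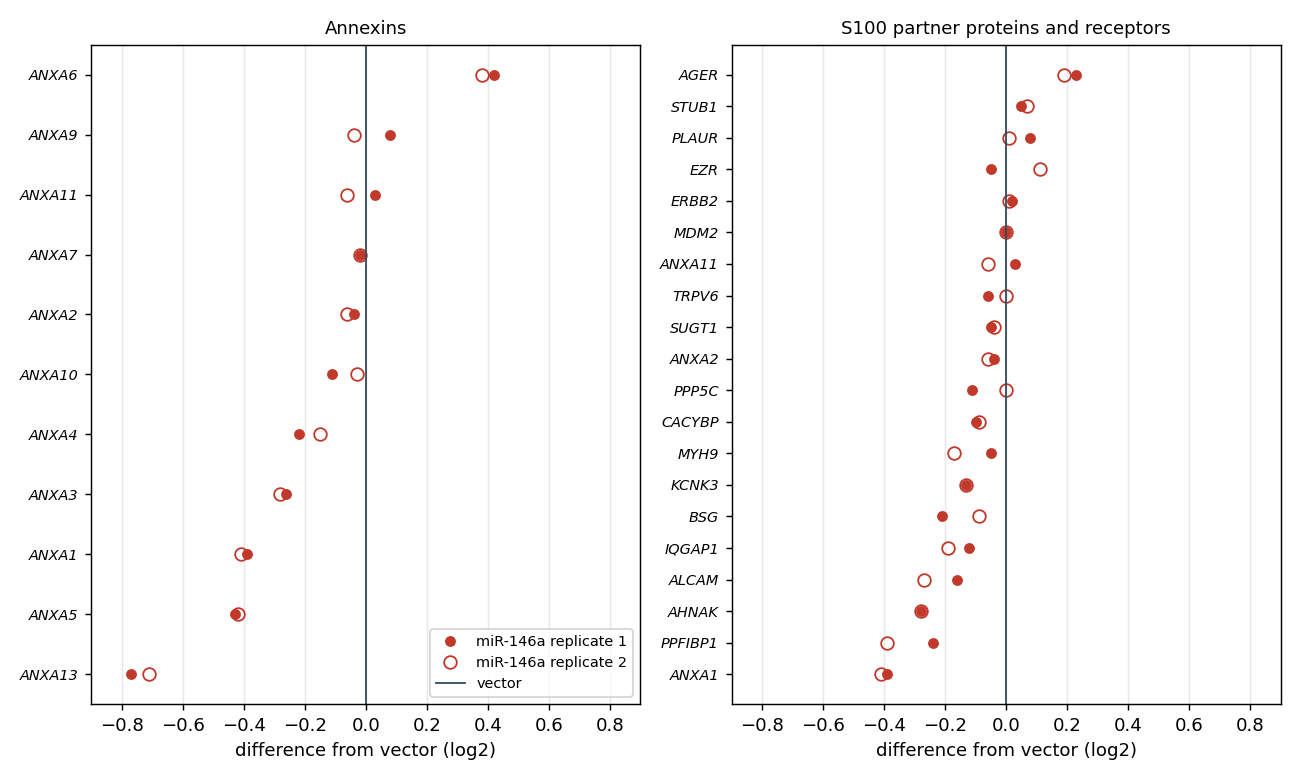
Difference from the vector array (log2, x axis) in miR-146a replicate 1 (filled circles) and replicate 2 (open circles) for annexins (left) and for S100 partners and receptors (right), each gene by its highest probe set above the filter. ANXA13, ANXA5 and ANXA1 lie lowest among the annexins and ANXA6 lies above the vector, while ANXA2 lies close to it.

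The genes whose pattern over the 2 array differences lay nearest to S100A10 238909_at were ELAC1, a tRNA-processing endonuclease, PPP1R10, a nuclear regulator of protein phosphatase 1, and SAMHD1, a nucleotide triphosphohydrolase that restricts viruses. Their mean log2 differences were 0.65, 0.64 and 0.64, at distances of 0.00748, 0.0112 and 0.0118 in the plane of both differences. These distances take no account of level. ELAC1 read 5.72 and 5.69 in the miR-146a arrays, against 5.05 in the vector array, with its vector value below the filter. In the vector array S100A10 238909_at read 8.02, and PPP1R10 and SAMHD1 read 8.04 and 9.20. The likeness is a loose one, since 67 genes had a probe set within 0.1 of S100A10 238909_at in both differences.

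Facts of the arrays that touch all of these values are few. The array medians were 5.14 and 5.12 for miR-146a and 5.13 for the vector. Over the probe sets above the filter, the SD of the differences from the vector was 0.22 in replicate 1 and 0.21 in replicate 2, and the SD of the differences between the replicates was 0.13. All 10 listed markers of colon epithelial cells had a probe set above the filter, against 2 of 4 for leukocytes (CD14 and LYZ, with PTPRC below it), 2 of 5 for fibroblasts (with COL1A2 and COL3A1 below it) and 1 of 4 for endothelial cells. Summed over the 10 epithelial markers, the log2 values came to 97.89 and 97.59 in the miR-146a arrays, against 99.82 in the vector array, with 5 markers lower and 4 higher in both arrays. Most of this fall lay in CEACAM5 201884_at (-1.35) and CDH17 (-0.54), while CEACAM5 217291_at differed by 0.00. With the prior from unequal replicates these 2 of 14 epithelial marker probe sets were called lower, against 4.78% of all probe sets. As higher, 0 were called, against 4.14%. Among the leukocyte markers LYZ 1555745_a_at differed by -0.72 and was called lower with that prior (limma adjusted p = 0.000342). LYZ 213975_s_at differed by -0.11 and was not called. CEACAM5 201884_at and CDH17 read below the vector, as did ANXA13, ANXA5 and ANXA1 201012_at, while ANXA1 233011_at read above it. All are read against the same vector array, so a shared side does not tie them together. The part of the epithelial markers in the S100 and annexin values was not tested. Controls at the 5′ ends of ACTB and GAPDH differed from the vector by -0.23 and -0.31 on the log2 scale, and those at the 3′ ends by 0.04 and -0.02, and the part of this in the S100 and annexin values was not tested.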

How the data were processed

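The authors deposited log2 values for 3 arrays, on which RMA had been run (per the submitters' processing notes), with no version given in the sources used here. These log2 values were used as deposited, for 54613 probe sets besides controls. Gene names came from the platform annotation of the probe sets (41091 with 1 gene, 1801 with several, 11721 with none), with symbols updated by Entrez number for 41037. No detection calls were used, and the number of arrays limits the precision.

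Probe sets were kept when the mean of both group means exceeded 5.13, the median of all, leaving 27306. Differences are miR-146a mean minus vector, and size was counted at 1.5-fold in both miR-146a arrays (a smaller fold was counted too and is not reported here). They were tested on these 27306 with lmFit and eBayes of limma 3.58.1 in R 4.3.3. Only the miR-146a pair gives a residual degree of freedom, so the spread of the lone vector array is taken to equal theirs. Limma's prior degrees of freedom were 0.558, or 15.1 with the prior from probe sets whose replicates differ. The alternatives were that prior, an intensity trend, a robust prior, gene summaries, other filters, other normalizations and leaving out either miR-146a array.

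The S100 members, the gene lists, the rules and the alternatives were chosen with earlier results of these data known. All member probe sets are named. Of each other list at most 4 genes were named by the smaller of their 2 array differences; ANXA2, CACYBP, EZR, PLAUR, TRPV6, CALU, CEACAM5, CDH17, LYZ, S100A8 and S100A9 were added after their values were seen, as were the second probe sets. Figures were drawn with matplotlib 3.10.9.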

Additional observations from a re-analysis of the deposited data

How the results depend on the processing

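Of 106 values of single S100 probe sets tested both as reported and under an alternative, 101 kept their direction and their side of the threshold. Direction turned in 4, and 1 (S100A10 238909_at with the prior from unequal replicates) crossed the threshold. A change of filter, prior or intensity trend leaves the difference itself unchanged, so directions kept under these were fixed in advance. The same holds for gene summaries of genes with 1 probe set. A further 34 values had no test, mostly those without 1 array and those of S100A13 213481_at below the filter. Of these, 32 kept their sign, S100A13 213481_at turned by the highest probe set, and S100A11 had no direction without replicate 1, where it was 0.00 against -0.08. The summary of a gene decided the direction of S100A10 and S100A13. With all probe sets averaged, S100A10 200872_at at -0.12 gave way to 0.26 and S100A13 202598_at at 0.02 to -0.12, while with only the highest probe set S100A10 238909_at at 0.65 gave way to -0.12 and S100A13 213481_at at -0.27 to 0.02. Quantile normalization turned S100A3 from -0.01 to a value above 0 that rounds to 0.00. With the prior from unequal replicates, limma called 1130 probe sets higher and 1306 lower, where it called 0 of each otherwise, and 1 S100 probe set higher, where it otherwise called 0. Without either miR-146a array, 6 S100 probe sets were higher and 5 to 6 lower, and a single array against a single array gives no test. The vector array could not be left out. No paired analysis was possible because the vector group has 1 array and its label carries no replicate number.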

Other observations

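EF-hand calcium sensors of other families lay near the vector as well. Of 20 such genes above the filter, 8 were higher and 5 lower in both miR-146a arrays, against 40.2% and 28.8% of all genes, 0 were 1.5-fold apart in both (0.546% of genes as higher and 0.297% as lower), and the median log2 difference was 0.00. CALML4, a calmodulin-like protein of the intestinal brush border, was an exception by probe set. Its highest probe set read 10.29 and 10.38 in the miR-146a arrays, against 10.15 in the vector array, and its 3 probe sets above the filter differed by 0.19, 0.21 and 0.52, all higher. The last, 1568600_at, was called by limma with the prior from unequal replicates (adjusted p = 0.00461, against 0.188 as first tested). Of the 39 EF-hand probe sets above the filter it was the 1 called higher, against 4.14% of all probe sets. Only 1 was called lower, CALU 214845_s_at (-0.46), against 4.78%. The other CALU probe sets above the filter differed by -0.16 to 0.00. NUCB2, a secreted EF-hand protein, read 7.93 and 8.17 in the miR-146a arrays, against 7.74 in the vector array.

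Genes beside the S100 cluster on chromosome 1 were counted in the same way. Of 8 neighbours above the filter 4 were higher in both miR-146a arrays, against 40.2% of all genes, and 2 were lower in both, against 28.8%. At 1.5-fold in both arrays there were 0, against 0.546% of genes as higher and 0.297% as lower. SNAPIN, a SNARE-binding protein, had the largest difference of them, with 9.36 and 9.34 in the miR-146a arrays, against 9.15 in the vector array.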
